A study of Mus musculus with 15 samples.

Results

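Transcript levels of 10 genes of the Hippo-YAP pathway were followed in ventricular cardiomyocytes of neonatal and adult mice. The genes were taken by name from a list, which was chosen with earlier results of these data known. They were the coactivators Yap1 and Wwtr1 (the gene for TAZ), the DNA-binding partner Tead1 and the kinases Lats1 and Lats2. The others were the kinase adaptor Mob1a, the kinase inhibitor Ajuba, and the target genes Ctgf, Cyr61 and Crim1. All 10 were among the 9666 genes of the deposited table, and all 10 were among the 9389 that were tested. The study sequenced RNA from isolated ventricular cardiomyocytes of wild-type C57BL/6 mice, with the aim of finding mediators of heart muscle regeneration. The 3 groups were postnatal day 1 (P1, 4 libraries), postnatal day 3 (P3, 4 libraries) and adults of 8 to 12 weeks (7 libraries), and no treatment or altered allele is named for any of them. The labels do not say that each library came from a separate animal, or how many hearts went into one, so the p-values describe the spread among these libraries only, and that spread may be technical. Levels are RPKM, reads per kilobase of gene scaled to the total of the library, so levels of different genes are compared per length.

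In the Hippo pathway, upstream kinases switch on LATS1 and LATS2, which work with the adaptor MOB1. LATS kinases phosphorylate YAP and TAZ, which are then held in the cytoplasm or degraded. When they are not phosphorylated, YAP and TAZ enter the nucleus, bind TEAD proteins and raise transcription of genes such as Ctgf and Cyr61. In the heart the pathway is known for restraining cardiomyocyte proliferation, and YAP for supporting it before and soon after birth. Much of this control acts on protein phosphorylation and location, which transcript levels do not measure.

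The libraries differed in ways that touch each comparison below. A change here is a log2 difference between group means of RPKM + 0.5, tested with limma, and on that scale the median gene exceeded its adult level by 1.36 in P1 and by 1.48 in P3. For the 10 genes each change against adult is therefore also given on a median-centred scale, with every library's median gene set to 0. All 10 cardiomyocyte markers on the list were in the table. Their summed level was 15462 to 29831 RPKM in adult libraries, 4291 to 9418 RPKM in P1 and 614 to 5802 RPKM in P3. In P3 replicate 1 was the highest, and the other 3 reached at most 1294 RPKM. The most abundant genes weigh most in such sums. With an adjusted p under 0.05 (limma) and a log2 change of at least 1, 6 of the 10 were lower in P1. In P3 all 10 were, against 4.32% (P1) and 9.16% (P3) of all genes tested. Median-centred, all 10 were lower in both, against 21.6% and 27.1%. The summed level of the 9 endothelial markers in the table, of 12 listed, was 2.85 to 204.6 RPKM in adult, 204.1 to 476 RPKM in P1 and 692 to 1652 RPKM in P3. For 6 of 11 fibroblast markers the sums were 4.80 to 81.2 RPKM in adult, 165 to 1414 RPKM in P1 and 381 to 812 RPKM in P3, with P1 replicate 1 at 1414 RPKM and the other P1 libraries at or under 200.5 RPKM. The 4 mural cell markers in the table, of 8 listed, summed to 31.8 to 120.3 RPKM in adult, 120.5 to 513 RPKM in P1 and 437 to 720 RPKM in P3. The higher neonatal mural sums came from Acta2, with means of 27.4 RPKM in adult, 326 RPKM in P1 and 495 RPKM in P3. In the same order, the means of Rgs5 were 23.7, 4.27 and 8.71 RPKM, and those of Abcc9 19.4, 9.59 and 17.0 RPKM. Both were thus lower in the neonatal groups. Myh11 was low throughout, at 0.327, 0.911 and 1.43 RPKM. Epicardial, immune and erythroid markers (0 genes of each list in the table) are not analysed here. The RPKM values of 6 libraries (adult replicates 1 to 4, P1 replicate 2 and P3 replicate 2) stepped in even read numbers for 99.8% of the genes checked, against 47.5% to 51.0% in the other 9. If their reads are halved for that reason, adult replicates 1 to 4 had a relative depth of 0.64 to 1.13 and adult replicates 5 to 7 of 1.71 to 1.75, with adult replicate 1 at 1. If they are not halved, adult replicates 1 to 4 were at 1.28 to 2.26, which spans the values of replicates 5 to 7. The 2 adult sets therefore differ in read step, and which depth applies was not settled. Whether other cell types, the lower cardiomyocyte marker sums, read step or depth took part in the results below was not tested. In such bulk libraries fewer cells of a type and less RNA per cell cannot be told apart.

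All 10 genes were higher in P1 than in adult on the deposited scale, by a median log2 change of 3.09, against 1.36 for the median gene tested. Each of the 10 passed the test (adjusted p under 0.05 and a log2 change of at least 1), and 62.7% of all genes tested did the same in that direction, while 0 of the 10 and 4.32% of all genes passed as lower. In each of the 10 the lowest P1 library lay above the highest adult library, as for 65.1% of all genes tested. A count of 10 is therefore to be read against a table in which most genes were higher. The counts here and below also include Ajuba and Lats1, which entered the test only through their neonatal libraries. They reached 1 RPKM in 1 and 3 adult libraries, under the 4 libraries that entry needs. On the median-centred scale 7 of the 10 passed in P1: Wwtr1, Lats2, Mob1a, Ajuba, Ctgf, Cyr61 and Crim1, against 13.7% of all genes, and 0 of the 10 passed as lower, against 21.6%. In P3 all 10 were again higher than in adult, with a median log2 change of 4.13 against 1.48 for the median gene, and 62.7% of all genes passed in that direction and 9.16% in the other. In each of the 10 the P3 and adult libraries did not overlap, as for 64.3% of genes. On the median-centred scale 8 passed in P3, the same 7 and Lats1, against 19.1% of all genes, and 0 passed as lower, against 27.1%. The comparisons of P1 and of P3 with adult share the adult libraries, so neither is an independent check of the other.

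**Figure D1:**
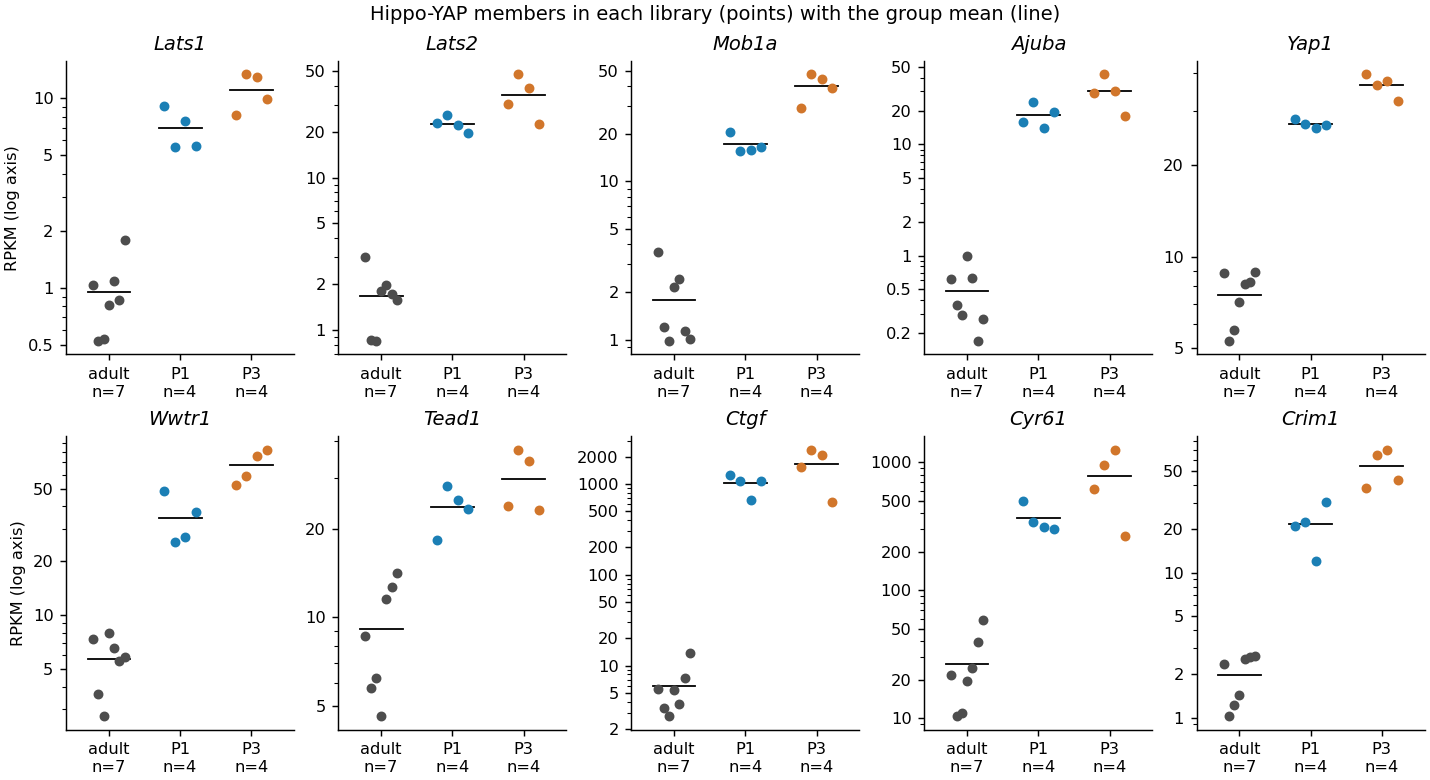
RPKM of the 10 genes in every library, 1 panel per gene on a log axis, with adult (n = 7), P1 (n = 4) and P3 (n = 4) on the x axis, a point for each library and a line at the group mean. The neonatal points lie above every adult point in each panel, by the widest margin for Ctgf and by the narrowest for Tead1.

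Yap1, a transcriptional coactivator of the pathway, had a narrow range within each group. Its level was 5.28 to 8.89 RPKM in adult libraries with a median of 8.13 RPKM, 28.2, 27.3, 26.4 and 27.0 RPKM in P1 replicates 1 to 4, and 39.6, 36.4, 37.8 and 32.4 RPKM in P3 replicates 1 to 4. The 3 groups did not overlap, and every P3 library lay above every P1 library. Against adult, Yap1 rose by a log2 change of 1.82 ± 0.17 (SE, n = 4 against 7; adjusted p = 1.8e-08, limma) in P1. In P3 the rise was 2.24 ± 0.17 (SE; adjusted p = 8.3e-10, limma). On the median-centred scale the changes of Yap1 were 0.37 (adjusted p = 0.017, limma) in P1 and 0.69 (adjusted p = 0.00011, limma) in P3, both under the fold threshold of 1.

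Wwtr1 encodes TAZ, the paralog of YAP that binds the same TEAD partners. Its level was 2.75 to 7.99 RPKM in adult with a median of 5.82 RPKM, 48.4, 25.3, 27.0 and 37.1 RPKM in P1 replicates 1 to 4, and 52.4, 58.7, 76.0 and 82.6 RPKM in P3 replicates 1 to 4. The 3 groups did not overlap. Wwtr1 rose by a log2 change of 2.52 ± 0.26 (SE; adjusted p = 6.2e-08, limma) in P1 and by 3.50 ± 0.26 (SE; adjusted p = 6.4e-10, limma) in P3. The median-centred changes were 1.07 in P1 and 1.96 in P3. The P1 value rests in part on P1 replicate 1, the library with the highest fibroblast marker sum: without it the median-centred change of Wwtr1 was 0.88 and did not pass the fold threshold.

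Wwtr1 was also set against Yap1 in the same library, as a log2 ratio of RPKM + 0.5, which depends little on how a library was scaled except where a level is low. This ratio was -0.41 ± 0.34 (SD, n = 7) in adult, 0.28 ± 0.40 (SD, n = 4) in P1 and 0.85 ± 0.40 (SD, n = 4) in P3. Yap1 was the higher of the pair in 6 of 7 adult libraries, and Wwtr1 was the higher in 3 of 4 P1 libraries and in 4 of 4 P3 libraries. The ratio was higher than in adult by 1.26 in P3, where the groups did not overlap (exact permutation test, two-sided, p = 0.0061, adjusted p = 0.014 over 9 ratio comparisons). That p is the smallest the 330 splits of 4 against 7 libraries allow. In P1 it was higher by 0.70 with overlapping groups (exact permutation test, two-sided, p = 0.018, adjusted p = 0.027), and this call was lost without P1 replicate 1 (difference 0.53, adjusted p = 0.075) and without P1 replicate 4 (difference 0.64, adjusted p = 0.075). Between P3 and P1 the difference of 0.57 did not pass (exact permutation test, p = 0.14, adjusted p = 0.18). With no pseudocount, an alternative chosen after seeing the data, the differences of this ratio from adult were 0.74 in P1 and 1.31 in P3, and both passed.

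Tead1, a DNA-binding protein through which YAP and TAZ reach their targets and which also binds muscle gene promoters, moved least of the 10. Its level was 4.61 to 14.2 RPKM in adult with a median of 8.62 RPKM, 18.4, 28.0, 25.2 and 23.5 RPKM in P1 replicates 1 to 4, and 24.0, 37.4, 34.1 and 23.3 RPKM in P3 replicates 1 to 4. The neonatal libraries lay above the adult ones, and P1 and P3 overlapped. The log2 change of Tead1 was 1.42 ± 0.27 (SE; adjusted p = 9.5e-05, limma) in P1 and 1.72 ± 0.27 (SE; adjusted p = 9.8e-06, limma) in P3 on the deposited scale, but -0.03 (adjusted p = 0.93, limma) and 0.18 (adjusted p = 0.53, limma) on the median-centred scale. The change of Tead1 was thus near that of the median gene, and its direction in P1 turned with the scaling. Adult replicates 5 to 7 held 11.6 to 14.2 RPKM of Tead1 and adult replicates 1 to 4 held 4.61 to 8.62 RPKM, with no overlap. Against adult replicates 5 to 7 alone the P1 change of Tead1 on the deposited scale was 0.85 and did not pass, and against replicates 1 to 4 alone it was 1.85.

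The paralogous kinases Lats1 and Lats2, which phosphorylate YAP and TAZ, did not move equally. Lats1 was at 0.525 to 1.79 RPKM in adult with a median of 0.867 RPKM, 9.07, 5.52, 7.56 and 5.63 RPKM in P1 replicates 1 to 4, and 8.13, 13.3, 13.0 and 9.92 RPKM in P3 replicates 1 to 4. Lats2, which is itself a known YAP target, was at 0.846 to 3.00 RPKM in adult with a median of 1.73 RPKM. In P1 replicates 1 to 4 Lats2 was at 22.7, 25.7, 22.2 and 19.5 RPKM, and in P3 replicates 1 to 4 at 30.5, 47.5, 38.7 and 22.6 RPKM. Both genes were higher in every neonatal library than in any adult one, and P1 and P3 overlapped for both. The log2 change of Lats1 was 2.38 ± 0.23 (SE; adjusted p = 2.1e-08, limma) in P1 and 3.02 ± 0.23 (SE; adjusted p = 6.6e-10, limma) in P3, and 0.93 and 1.47 on the median-centred scale, the first of which did not pass the fold threshold. Lats2 had a log2 change of 3.46 ± 0.25 (SE; adjusted p = 1.0e-09, limma) in P1 and 4.03 ± 0.25 (SE; adjusted p = 9.2e-11, limma) in P3, and 2.01 and 2.49 on the median-centred scale.

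Within a library the log2 ratio of Lats2 to Lats1, again of RPKM + 0.5, was 0.57 ± 0.41 (SD, n = 7) in adult, 1.65 ± 0.36 (SD, n = 4) in P1 and 1.58 ± 0.32 (SD, n = 4) in P3. The difference of 1.08 between P1 and adult had an exact permutation p of 0.0061 (two-sided, adjusted p = 0.014). For P3 the difference was 1.01 (exact permutation test, two-sided, p = 0.012, adjusted p = 0.022). Adult Lats1 is low enough for the 0.5 to shrink the adult ratios. On plain RPKM, an alternative chosen after seeing the data, Lats2 was 0.878 to 2.88 times Lats1 in adult, 2.51 to 4.66 times in P1 and 2.28 to 3.75 times in P3, and adult replicate 1 overlapped the neonatal libraries. The differences from adult were then 0.91 in P1 and 0.81 in P3 on the log2 scale (exact permutation tests, two-sided, p = 0.012 and adjusted p = 0.022 for each). With the 0.5 added, P3 and P1 differed by -0.07, less than the spread between libraries (exact permutation test, p = 0.8).

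Mob1a, the adaptor that LATS kinases need for activity, was at 0.980 to 3.58 RPKM in adult with a median of 1.21 RPKM. It was at 20.6, 15.6, 15.9 and 16.5 RPKM in P1 replicates 1 to 4 and at 29.3, 47.5, 44.3 and 39.0 RPKM in P3 replicates 1 to 4, and the 3 groups did not overlap. Mob1a rose by a log2 change of 3.04 ± 0.26 (SE; adjusted p = 5.7e-09, limma) in P1 and 4.23 ± 0.26 (SE; adjusted p = 8.0e-11, limma) in P3, and by 1.59 and 2.68 on the median-centred scale. Its close paralog Mob1b, which serves the same kinases, rose by 2.14 in P1 and 2.04 in P3 on the deposited scale, and by 0.69 and 0.49 on the median-centred scale, where neither value passed. The reads of such similar paralogs could be divided between them in ways the sources do not state.

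Ajuba, a LIM-domain protein that binds and inhibits LATS kinases, was the least abundant of the 10 in adult. Its level was 0.170 to 1.00 RPKM in adult with a median of 0.361 RPKM, 16.1, 24.3, 14.0 and 19.6 RPKM in P1 replicates 1 to 4, and 28.7, 42.7, 30.5 and 18.2 RPKM in P3 replicates 1 to 4. Every neonatal library was far above every adult one. The log2 change of Ajuba was 4.30 ± 0.25 (SE; adjusted p = 1.2e-10, limma) in P1 and 4.96 ± 0.25 (SE; adjusted p = 1.5e-11, limma) in P3, and 2.85 and 3.41 on the median-centred scale. Of the related LIM proteins, Wtip rose by 3.69 in P1 and 3.80 in P3 on the deposited scale, whereas Limd1 changed by 0.75 and 0.96, under the fold threshold. Median-centred, Wtip passed as well, with 2.24 and 2.26, and Limd1 was at -0.70 and -0.58, which did not pass. Adult Ajuba levels rest on few reads, at least 10 to 38 per library as recovered from the steps of the RPKM values. Ajuba reached 1 RPKM in 1 adult library and Lats1 in 3, so both entered the test through their neonatal libraries. Wtip, with an adult mean of 0.509 RPKM and a highest adult level of 1.06 RPKM, entered in the same way.

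**Figure D2:**
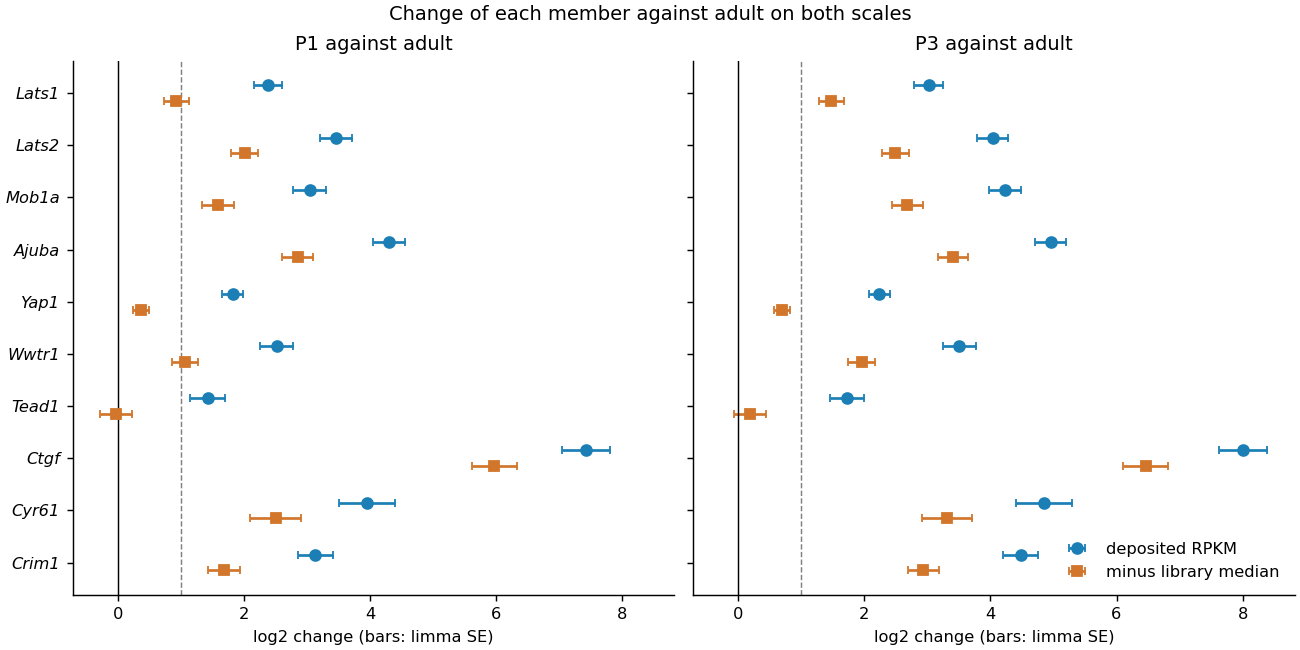
Log2 change of each of the 10 genes against adult, with P1 (n = 4) in the left panel and P3 (n = 4) in the right, against 7 adult libraries; circles are the deposited scale, squares the median-centred scale, bars 1 SE, and the dashed line the fold threshold of 1. Ctgf has the largest change on either scale, and the squares of Tead1 and Yap1 lie below the threshold, that of Tead1 in P1 at -0.03.

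Ctgf and Cyr61, secreted matricellular proteins and the target genes most often used to report YAP activity, were the most abundant of the 10 in neonatal libraries. Ctgf was at 2.76 to 13.6 RPKM in adult with a median of 5.44 RPKM, 1251, 1078, 664 and 1066 RPKM in P1 replicates 1 to 4, and 1530, 2396, 2072 and 627 RPKM in P3 replicates 1 to 4. Its neonatal levels were far above every adult level, and P3 replicate 4 lay below all P1 libraries. The ratio of group means was 170 in P1 and 278 in P3. The log2 change of Ctgf was 7.43 ± 0.39 (SE; adjusted p = 3.7e-11, limma) in P1, the largest rise of 9389 genes, and 8.00 ± 0.39 (SE; adjusted p = 9.9e-12, limma) in P3, the second largest. Median-centred, the changes of Ctgf were 5.97 and 6.46.

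Cyr61 was the most abundant of the 10 in adult, at 10.4 to 58.5 RPKM with a median of 21.9 RPKM. It was at 496, 343, 314 and 302 RPKM in P1 replicates 1 to 4 and at 619, 957, 1254 and 263 RPKM in P3 replicates 1 to 4. Neonatal and adult libraries did not overlap, and P3 replicate 4 was again below all P1 libraries. Cyr61 rose by 3.95 ± 0.44 (SE; adjusted p = 1.6e-07, limma) in P1 and 4.85 ± 0.44 (SE; adjusted p = 7.9e-09, limma) in P3 on the log2 scale, and by 2.50 and 3.31 on the median-centred scale. Adult replicates 5 to 7 held 24.9 to 58.5 RPKM of Cyr61 and adult replicates 1 to 4 held 10.4 to 21.9 RPKM. Against the first of these sets the P1 change of Cyr61 was 3.19, and against the second it was 4.53, and both passed.

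The order of these 2 targets turned between the ages. In every adult library Cyr61 was above Ctgf, and in every neonatal library Ctgf was above Cyr61. The log2 ratio of Ctgf to Cyr61 was -2.00 ± 0.37 (SD, n = 7) in adult, 1.47 ± 0.33 (SD, n = 4) in P1 and 1.15 ± 0.29 (SD, n = 4) in P3. The difference from adult was 3.47 in P1 and 3.15 in P3 (exact permutation tests, two-sided, p = 0.0061 and adjusted p = 0.014 for each). P3 and P1 differed by -0.32 (exact permutation test, p = 0.2, adjusted p = 0.23).

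**Figure D3:**
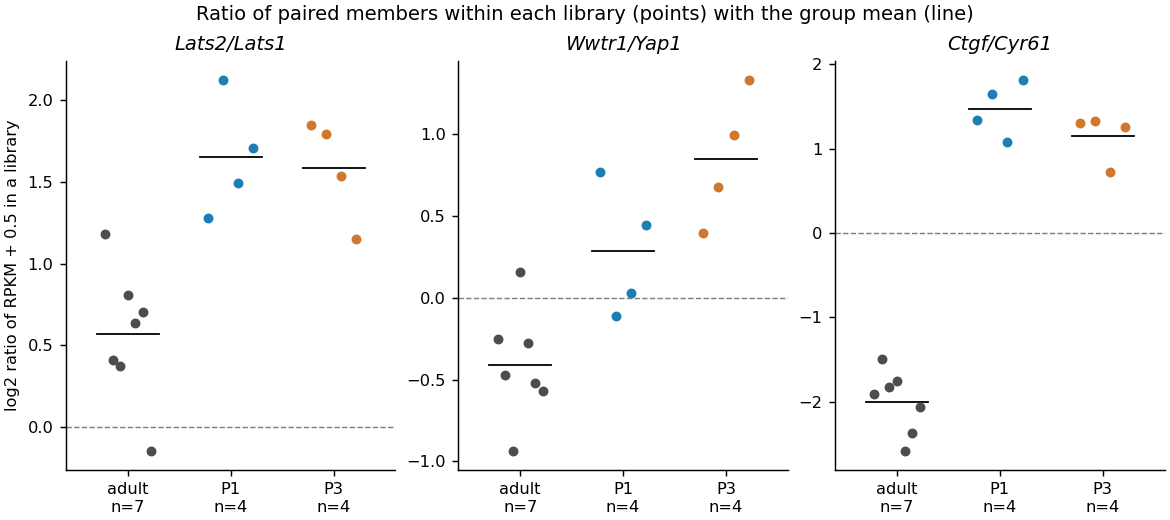
Log2 ratio of RPKM + 0.5 within each library for Lats2 to Lats1, Wwtr1 to Yap1 and Ctgf to Cyr61, with a point for each library and a line at the group mean, in adult (n = 7), P1 (n = 4) and P3 (n = 4). The Ctgf to Cyr61 ratio lies below 0 in all adult libraries and above 0 in all neonatal ones.

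Crim1, a transmembrane protein that binds bone morphogenetic proteins and a member of a published YAP and TAZ target signature, was at 1.02 to 2.65 RPKM in adult with a median of 2.36 RPKM. It was at 21.0, 22.3, 12.0 and 30.7 RPKM in P1 replicates 1 to 4 and at 38.5, 64.6, 70.4 and 43.4 RPKM in P3 replicates 1 to 4, and the 3 groups did not overlap. Crim1 rose by a log2 change of 3.13 ± 0.27 (SE; adjusted p = 7.4e-09, limma) in P1 and 4.48 ± 0.27 (SE; adjusted p = 7.5e-11, limma) in P3, and by 1.68 and 2.93 on the median-centred scale. Adult replicates 5 to 7 (2.55 to 2.65 RPKM) lay above adult replicates 1 to 4 (1.02 to 2.36 RPKM) for Crim1. Among all genes tested, 23.7% were higher in adult replicates 5 to 7 with no overlap, as were Tead1, Cyr61 and Crim1 of the 10.

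Since most of the 10 rose together, their promoters were searched for GGAATG, the core letters of the sequence that TEAD proteins bind, or its reverse complement CATTCC, in the 250 bases before each gene's start. Promoter windows came from RefSeq on build GRCm38.p6 and were matched for 8 of the 10 genes. Ctgf and Tead1 were not matched. The letters were found in 6 of 8 genes: Yap1, Wwtr1, Mob1a, Ajuba, Cyr61 and Crim1. The match of Mob1a overlaps an annotated exon, and its stretch is not printed for that reason. The letters were found in 14.4% of 27025 genes with a window, and in 12.4% of the 7871 that are also in the deposited table. A match of 6 letters is a description of the sequence and does not show binding. Lats1 and Lats2 had no match in their windows. The stretches around the match are shown for 5 of these genes, since they carry the letters that most of the 10 share. Each is written 5′ to 3′ on the strand of its gene, with the matched letters in capitals.
Yap1, chr9:8004682-8004787, minus strand: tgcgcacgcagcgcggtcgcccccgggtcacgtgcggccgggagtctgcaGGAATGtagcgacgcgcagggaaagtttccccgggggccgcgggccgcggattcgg
Wwtr1, chr3:57575991-57576096, minus strand: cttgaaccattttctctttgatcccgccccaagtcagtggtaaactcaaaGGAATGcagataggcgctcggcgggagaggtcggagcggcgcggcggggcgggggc
Ajuba, chr14:54577792-54577897, minus strand: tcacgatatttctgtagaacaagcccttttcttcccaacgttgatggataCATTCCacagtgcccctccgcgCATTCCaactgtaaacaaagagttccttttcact
Cyr61, chr3:145650033-145650138, minus strand: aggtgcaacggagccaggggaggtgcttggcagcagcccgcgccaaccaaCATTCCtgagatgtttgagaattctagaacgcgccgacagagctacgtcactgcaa
Crim1, chr17:78200119-78200224, plus strand: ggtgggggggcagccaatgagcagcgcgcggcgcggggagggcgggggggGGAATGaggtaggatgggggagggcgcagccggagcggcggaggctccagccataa
The match lies 141 bases before the start of Yap1, 103 before that of Cyr61 and 79 before that of Crim1. Wwtr1 has 2 listed starts, 136 and 170 bases away, and Ajuba carries the letters at 186 and 164 bases. These distances, and the 250 bases searched, are counted from the RefSeq starts. The GENCODE position given below for Ajuba begins further from its matches. Counted from that position, both matches of Ajuba lie outside 250 bases. The Crim1 stretch and those of Yap1 and Wwtr1 hold GGAATG on the gene's strand, and those of Ajuba and Cyr61 hold CATTCC. On build mm10 the genes themselves lie at chr9:7931999-8004596 (Yap1), chr3:57455649-57575910 (Wwtr1), chr7:112679318-112906807 (Tead1), chr10:7681214-7716460 (Lats1) and chr14:57689662-57758388 (Lats2). The others lie at chr6:83326016-83343776 (Mob1a), chr14:54567472-54577558 (Ajuba), chr10:24595442-24598683 (Ctgf, now named Ccn2), chr3:145646976-145649981 (Cyr61, now named Ccn1) and chr17:78200248-78376592 (Crim1). All 10 are annotated as protein-coding.

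Between P1 and P3, Crim1 and Mob1a were the members that rose further. Crim1 rose by a log2 change of 1.34 ± 0.31 (SE, n = 4 against 4; adjusted p = 0.018, limma) and Mob1a by 1.18 ± 0.29 (SE; adjusted p = 0.022, limma). These 2 of 10 compare with 1.4% of all genes called higher in P3, and 0 of 10 called lower with 5.31%. The libraries did not overlap for 4 of the 10, Crim1, Mob1a, Wwtr1 and Yap1, as for 10.7% of all genes. On the median-centred scale the same 2 passed, with 1.25 for Crim1 and 1.09 for Mob1a, against 1.18% of genes called higher, and 7.54% were called lower. Wwtr1 changed by 0.98 (adjusted p = 0.044, limma), just under the fold threshold, and Yap1 by 0.41 (adjusted p = 0.17, limma). The other 6 differed by 0.30 to 0.90 with overlapping libraries and did not pass.

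The calls from P1 to P3 depended on single libraries, while the changes of Crim1 and Mob1a stayed above the fold threshold without any 1 library. The call for Crim1 was lost without P1 replicate 2 or 3 or P3 replicate 2 or 3 (log2 changes of 1.38, 1.09, 1.24 and 1.20, adjusted p from 0.056 to 0.082, limma). For Mob1a it was lost without any of P1 replicates 2 to 4 or P3 replicates 2 to 4 (1.10 to 1.19, adjusted p from 0.056 to 0.091, limma). Wwtr1 passed when P1 replicate 1 (1.16) or P3 replicate 1 (1.10) was left out. With all libraries it passed after quantile normalization (1.17, adjusted p = 0.013, limma), with equal RPKM sums (1.11, adjusted p = 0.02, limma) and with equal sums that leave out the 100 highest genes (1.00, adjusted p = 0.024, limma). P3 replicate 4 had the highest endothelial marker sum, 1652 RPKM, the lowest cardiomyocyte marker sum, 614 RPKM, and the lowest RPKM sum, 228162, of its group. It had the highest Wwtr1 of P3 and the lowest Yap1, Tead1, Lats2, Ajuba, Ctgf and Cyr61. Median-centred, Tead1 was lowest in P3 replicate 1 instead. Without P3 replicate 4 the P3 against P1 change of Ctgf moved from 0.58 to 0.99 and that of Cyr61 from 0.90 to 1.34. Neither passed (adjusted p = 0.16 and 0.12, limma). Other libraries moved these values down: Ctgf was at 0.35 without P3 replicate 2 and 0.39 without P1 replicate 3, and Cyr61 at 0.59 without P3 replicate 3.

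**Figure D4:**
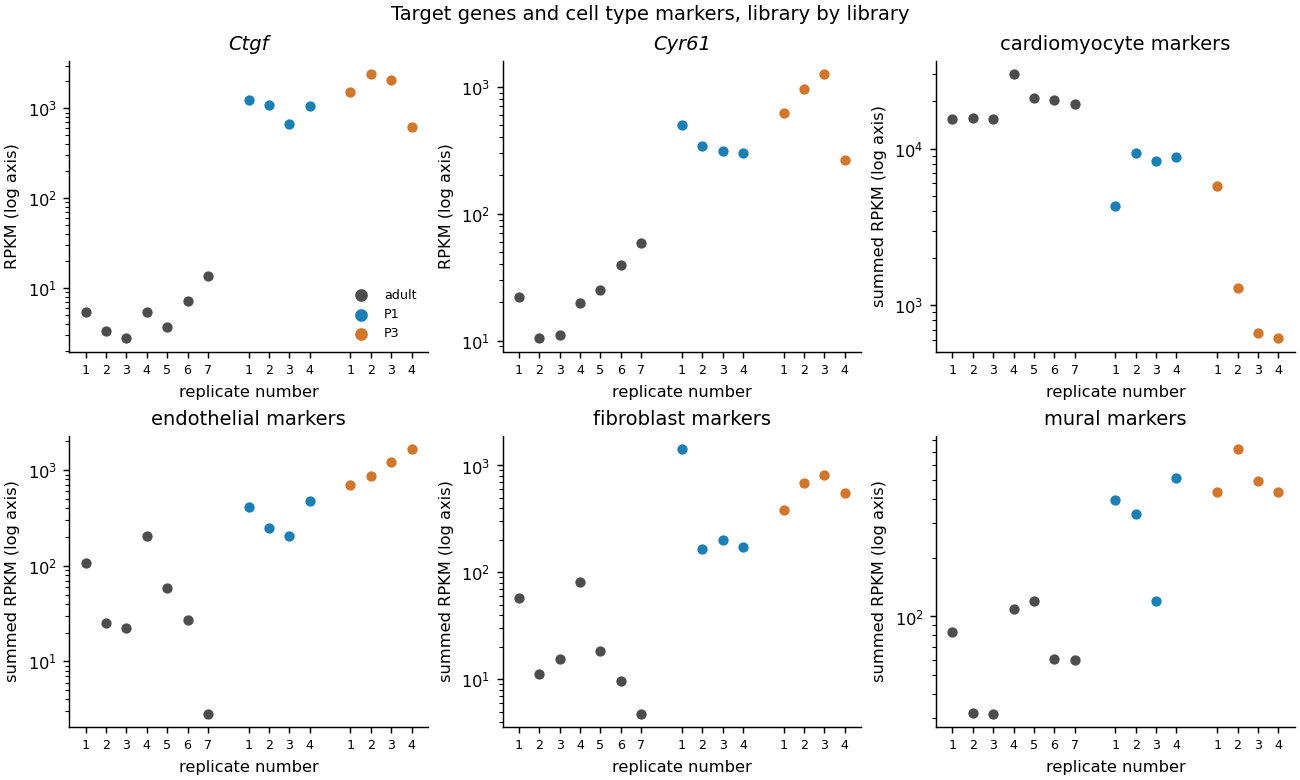
RPKM of Ctgf and Cyr61 and summed RPKM of cardiomyocyte, endothelial, fibroblast and mural markers in each of the 15 libraries, a point per library in order of replicate number, colored by group, on log axes. Adult replicate 7 has the highest adult Ctgf and Cyr61 and the lowest endothelial and fibroblast sums, and P3 replicate 4 has the lowest Ctgf and Cyr61 of P3 and the highest endothelial sum.

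Single libraries at the ends of the marker sums had the following levels. Adult replicate 7 had the lowest endothelial sum, 2.85 RPKM, and the lowest fibroblast sum, 4.80 RPKM, of the 15 libraries, and the highest Yap1, Tead1, Lats1, Ctgf, Cyr61 and Crim1 of the adults. Median-centred, it kept the highest Tead1, Lats1, Ctgf and Cyr61, and adult replicate 1 had the highest Yap1 and Crim1. Adult replicate 4, with the highest adult endothelial (204.6 RPKM) and fibroblast (81.2 RPKM) sums, also had the highest adult RPKM sum, 280112, and cardiomyocyte sum, 29831 RPKM. It had Ctgf at 5.44 RPKM, the adult median, and the highest adult Wwtr1, 7.99 RPKM, and Ajuba, 1.00 RPKM. Median-centred, Wwtr1 was highest in adult replicate 1 instead (1.23 against 1.01 in replicate 4), and Ajuba still in replicate 4. P1 replicate 1, with the highest fibroblast sum and a cardiomyocyte sum of 4291 RPKM against 8295 to 9418 RPKM in the other P1 libraries, had the lowest Tead1 of P1, 18.4 RPKM, and the highest Yap1, Wwtr1, Lats1, Mob1a, Ctgf and Cyr61 of P1.

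Ranked by mean level per length, the adult order was Cyr61 (26.6 RPKM), Tead1 (9.10), Yap1 (7.47), Ctgf (5.95), Wwtr1 (5.69), Crim1 (1.98), Mob1a (1.78), Lats2 (1.68), Lats1 (0.953) and Ajuba (0.476). Only Cyr61 over Tead1 and Wwtr1 over Crim1 held in 7 of 7 adult libraries, and the other neighbours changed places in at least 1 library each. In P1 the order was Ctgf (1015 RPKM), Cyr61 (364), Wwtr1 (34.4), Yap1 (27.2), Tead1 (23.8), Lats2 (22.5), Crim1 (21.5), Ajuba (18.5), Mob1a (17.1) and Lats1 (6.94). The places of Ctgf and Cyr61 at the top and of Lats1 at the bottom held in 4 of 4 P1 libraries, and the neighbours from Wwtr1 to Mob1a changed places in at least 1 library each. P3 had Ctgf (1656 RPKM), Cyr61 (773), Wwtr1 (67.4), Crim1 (54.2), Mob1a (40.0), Yap1 (36.6), Lats2 (34.8), Ajuba (30.0), Tead1 (29.7) and Lats1 (11.1). Neighbours in P3 that kept their order in 4 of 4 libraries were Ctgf and Cyr61, Cyr61 and Wwtr1, Crim1 and Mob1a, Lats2 and Ajuba, and Tead1 and Lats1. Tead1 thus moved from the second place in adult to the ninth in P3, and Ajuba left the last place to Lats1.

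The other genes of the pathway were counted from lists of its upstream regulators, LATS inhibitors, YAP-handling proteins, TEAD partners and targets. In the counts of these lists, a gene that rose or fell is one that passed the test in that direction. Of 27 upstream kinases, adaptors and scaffolds 21 were in the table, and 18 rose in P1 and 20 in P3 on the deposited scale, with median log2 changes of 2.15 and 2.60, against 1.36 and 1.48 for all genes tested. Over all genes 62.7% passed as higher in each comparison. Median-centred, 7 of 21 rose in P1 with 0 falling, against 13.7% and 21.6% of all genes, and 11 rose in P3 with 1 falling, against 19.1% and 27.1%. The largest rise in the list was that of Fat1, a giant cadherin that feeds into the pathway. Fat1 rose by 4.65 in P1 and 4.51 in P3 on the deposited scale, and by 3.20 and 2.96 median-centred. No adult library reached 1 RPKM of Fat1 (highest 0.857 RPKM), so Fat1 entered the test only through neonatal libraries. The same holds for Amot (highest adult level 0.965 RPKM), named after its values were seen. The kinases Stk38 and Stk38l are relatives of the LATS kinases that also bind MOB1. On the deposited scale they rose by 1.84 and 2.87 in P1 and by 1.58 and 2.22 in P3. Median-centred, Stk38l passed in P1 (1.41) but not in P3 (0.68), and Stk38 passed in neither (0.39 and 0.03). The 1 fall, chosen after its values were seen, was that of Nf2, the scaffold merlin, with a median-centred change of -1.22 in P3 and a deposited-scale change of 0.32 that did not pass.

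Of 11 proteins that oppose the kinases 10 were in the table, and 9 rose in P1 and in P3 on the deposited scale, against 62.7% of all genes. The list medians were 1.91 and 2.01, against 1.36 and 1.48. On the median-centred scale 2 of 10 passed in each, Wtip and Zyx, a share near the 13.7% (P1) and 19.1% (P3) of all genes. Zyx, zyxin of the actin cytoskeleton, rose by 3.62 in P1 and 4.26 in P3 on the deposited scale, and by 2.17 and 2.71 median-centred. Of 10 proteins that retain or degrade phosphorylated YAP, 9 rose in P1 and in P3 on the deposited scale, against 62.7% of all genes, with medians of 2.40 and 2.82, against 1.36 and 1.48. Median-centred, 5 rose in P1 and 6 in P3, against 13.7% and 19.1% of all genes. The exception on the deposited scale, named after its values were seen, was Btrc, a ubiquitin ligase subunit. Its changes of 0.46 in P1 and 0.60 in P3 were under the fold threshold. Median-centred, Btrc was at -0.99 (adjusted p = 0.00015, limma) and -0.94 (adjusted p = 0.00017, limma), just short of the fold threshold. Of 6 TEAD partners and competitors 2 were in the table. Vgll4, which competes with YAP for TEAD, rose by 2.61 in P1 and 3.12 in P3 and passed on the median-centred scale too (1.16 and 1.57). Tead3, a paralog of Tead1, rose by 1.51 and 1.72 on the deposited scale and, like Tead1, did not pass on the median-centred scale (0.06 and 0.17).

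Of 18 further genes of a published YAP and TAZ target signature 11 were in the table. On the deposited scale 9 rose in P1 and 10 in P3, with medians of 2.84 and 2.48, against 62.7% of all genes and medians of 1.36 and 1.48. On the median-centred scale 6 rose and 1 fell in P1, against 13.7% and 21.6% of all genes, and 5 rose and 0 fell in P3, against 19.1% and 27.1%. The leading genes were Tgfb2, a growth factor, and Amotl2, an angiomotin that binds YAP and is also in the upstream list. On the deposited scale Tgfb2 rose by 4.56 in P1 and 3.93 in P3, and Amotl2 by 3.81 and 4.16. Median-centred, Tgfb2 rose by 3.11 and 2.38, and Amotl2 by 2.36 and 2.61. No adult library reached 1 RPKM of Tgfb2 (highest 0.336 RPKM), which entered the test only through neonatal libraries. The same holds for Dock5 (highest adult level 0.899 RPKM), named after its values were seen. The 1 gene that fell on the median-centred scale, named after its values were seen, was Gadd45a, a stress response gene, by 1.13 in P1, with a deposited-scale change of 0.32 that did not pass. Between P1 and P3 the signature held 0 rises and 1 fall, against 1.4% and 5.31% of all genes. The fall was that of Nt5e, an ecto-nucleotidase, which was chosen after its values were seen. Nt5e had a mean of 2.48 RPKM in adult, 24.6 RPKM in P1 and 5.66 RPKM in P3, and its log2 change from P1 to P3 was -2.17 (adjusted p = 0.0069, limma). In the upstream list the 1 rise from P1 to P3 on the deposited scale was that of the kinase Map4k3, by 1.06, chosen in the same way. Median-centred, the change of Map4k3 was 0.965 and did not pass, and 0 genes of that list did.

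**Figure D5:**
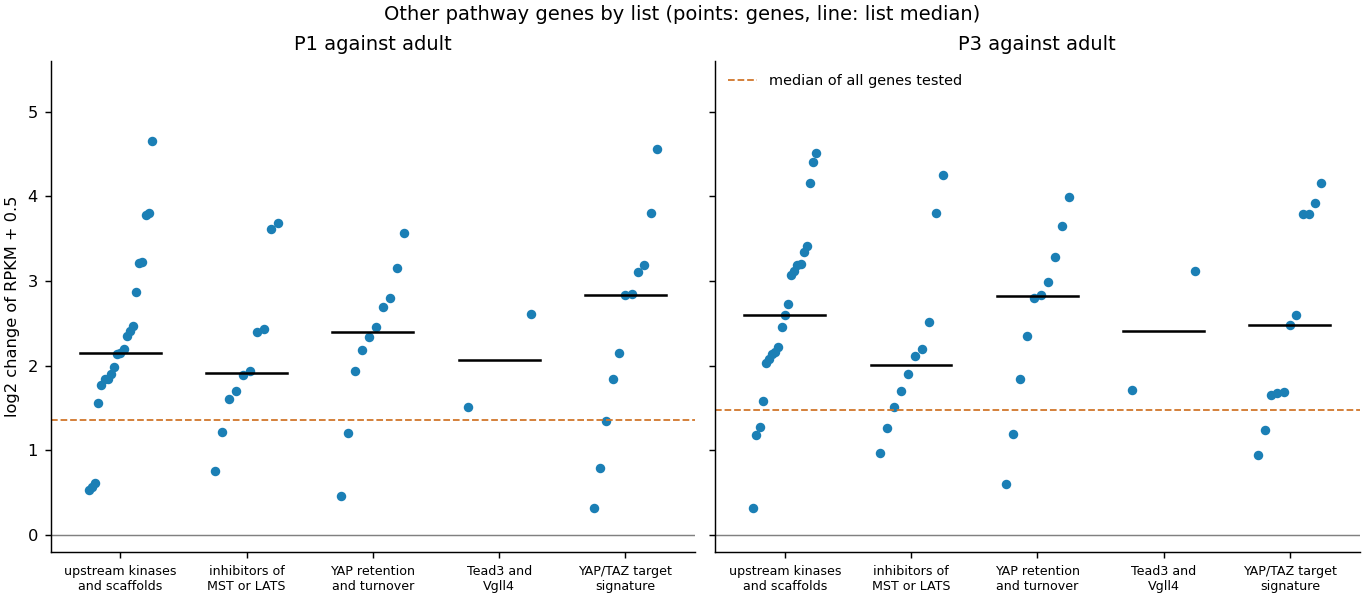
Log2 change of RPKM + 0.5 against adult on the deposited scale for each gene of the 5 pathway lists, with P1 on the left and P3 on the right, a point per gene, a black line at the list median and a dashed line at the median of all genes tested (1.36 and 1.48). All list medians lie above the dashed line. On the median-centred scale, not drawn, Nf2 and Gadd45a each passed as lower in 1 comparison.

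Genes whose profile over the 15 libraries was most like that of Yap1 on the median-centred scale were Pus7 (Pearson r = 0.954), Camsap2 (0.949), Mtdh (0.944) and Caprin1 (0.944), among 5730 genes with a mean of at least 5 RPKM. For Ctgf they were Rbm14 (Pearson r = 0.991), Bex3 (0.99), Tns3 (0.987) and Ddx21 (0.986). These values describe likeness over libraries that share 3 ages and the same scaling, and high values come readily because most of the spread lies between neonatal and adult libraries.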

How the data were processed

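RNA was sequenced from 15 libraries of mouse ventricular cardiomyocytes (adult 7, P1 4, P3 4). Per the labels' protocols, total RNA was extracted with TRIzol and libraries were made with an Illumina kit. The authors deposited 1 table of RPKM with a column per library. Alignment tools and build, per the submitters' processing notes, include HISAT2, Partek 6.6 and mm10. How reads were assigned to genes and strands, and which annotation served, is not given in the sources used here. Overlapping genes and near-identical copies are uncertain for that reason. Every listed value is above 0.1 RPKM, so genes below that level in any library are not analysed here. The total reads per library are not stated. RPKM steps gave whole reads, up to a common factor, for 8333 genes (86.2%) at a relative tolerance of 3e-05, and relative depths, with even-stepping libraries halved. Whether more reads underlie each step is unknown, so read numbers are lower bounds.

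The 9389 genes that reached 1 RPKM in at least 4 libraries entered limma 3.58.1 (R 4.3.3, eBayes with trend) as log2(RPKM + 0.5), over 3 groups that share 1 estimate of the spread, and p-values were adjusted by Benjamini-Hochberg over all genes tested. A fold change on this scale understates the change of low genes. A call needs an adjusted p under 0.05 and a log2 change of at least 1 in size, and every test was two-sided. Ratios of 2 genes within a library were compared by exact permutation tests (scipy 1.17.1), adjusted over 9 comparisons. The test was checked on simulated data. Alternatives were other scalings, filters, pseudocounts, the adult sets, a replicate block and leaving out each library. Positions come from GENCODE for mm10.

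The members, gene lists and tests were chosen with earlier results of these data known. Genes are named by a rule. They are the 10 members, paralogs of a member, and the 4 genes most like Yap1 and most like Ctgf. The largest called rise and deepest called fall against adult are also named for each pathway list but that of YAP-handling proteins. The 4 mural markers are named as a whole list. Genes named after their values were seen are marked so.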

Additional observations from a re-analysis of the deposited data

Results flagged for a closer look

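Ctgf in adult replicate 7 lay apart from the other adults. Its level there was 13.6 RPKM, and the other 6 adult libraries lay between 2.76 and 7.26 RPKM. It was the 1 such case among 30 sets of values checked, 3 groups for each of 10 genes, by the gap of the highest or lowest library to its neighbour relative to the range. Chance alone flags about 1 in 20 sets, which is 1.5 of 30, so 1 such case is no more than chance would give. The same library had the highest Cyr61 (58.5 RPKM), Yap1, Tead1, Lats1 and Crim1 of the adults and the lowest endothelial and fibroblast marker sums of all 15 libraries.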

How the results depend on the processing

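Direction and call of the 10 genes against adult held under both pseudocounts, no filter and each adult set but for Tead1. Requiring 1 RPKM in every library left Lats1, Lats2, Mob1a and Ajuba untested, so 6 members were called in P1 and 6 in P3, and 1 from P1 to P3. This strict filter tests fewer than the 9389 genes. The share of them called is not given here, so the member counts cannot be set against it. Scaling and the strict filter changed the calls over all genes. In P1, 1282 genes were higher median-centred, 1639 after quantile normalization, 1562 with median-of-ratios, 3886 with equal RPKM sums, 2934 without the 100 highest genes and 3385 with the strict filter, and 2032, 1697, 1856, 863, 1155 and 218 were lower. In P3, 1797 were higher median-centred, 2342 with quantiles, 2141 with median-of-ratios, 3646 without the 100 highest and 3277 with the strict filter, and 2547, 2174, 2335, 1617 and 567 were lower. From P1 to P3, 81 were higher with median-of-ratios, 248 with equal sums and 34 with the strict filter, and 320 were lower with adult replicates 1 to 4 only. Tead1 turned in P1 to -0.028 median-centred, -0.067 with median-of-ratios and -0.42 median-centred against adult replicates 5 to 7, and in P3 to -0.22 in that last setting. Median-centred settings chosen after seeing the data gave -0.026 for Tead1 without P3 replicate 1 and -0.026 without P3 replicate 4. Without P1 replicate 1 they gave 6 members called in P1. The share of all genes called in that setting is not given here, so the 6 cannot be set against it. The cause of these shifts was not tested.

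Replicate numbers did not pair the libraries (correlations of same-numbered deviations from -0.51 to 0.37). With the number as a replicate block, 76 genes were higher and 107 lower from P1 to P3, and 0 members were called. Leaving out 1 library gave 15 to 300 higher, 60 to 888 lower and 0 to 3 members from P1 to P3, Wwtr1 to Yap1 differences of 0.53 to 0.83 in P1, and Lats2 to Lats1 differences of -0.19 to 0.087 from P1 to P3, which turned to 0.087 without P1 replicate 2 and 0.074 without P3 replicate 4.

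Against adult replicates 1 to 4 only, the log2 ratio differences were 0.96 (P1) and 0.89 (P3) for Lats2 to Lats1, 0.66 and 1.23 for Wwtr1 to Yap1 and 3.22 and 2.90 for Ctgf to Cyr61. Against adult replicates 5 to 7 only they were 1.25 and 1.18, 0.74 and 1.31, and 3.81 and 3.49. With no pseudocount, chosen after seeing the data, all 9 ratio comparisons kept their direction and their side of the threshold. Against the adult sets, none passed (exact permutation tests, adjusted p from 0.064 to 0.13). These tests hold fewer libraries, and with 3 adults the exact test cannot pass the threshold whatever the values.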
